A study of Mus musculus with 6 samples.

Results

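Genes of cholesterol efflux and lipid handling were followed in the mouse macrophage-like line Raw264.7, with and without a knock down of Usp8, which encodes an endosomal deubiquitinating enzyme. The 10 members were taken by symbol: the LXR and PPAR factors Nr1h3, Nr1h2 and Pparg, and their efflux, storage and binding targets Abca1, Abcg1, Lpl, Plin2, Fabp4, Fabp5 and Mylip. All 10 were found among the 55291 gene symbols of the tables. Of these, 9 passed the filter on low counts, as did 12440 genes in all, and Fabp4 did not. The shUSP8 group held 3 libraries from cells given a short hairpin against Usp8, and the shCtrl group held 3 libraries from cells given a control hairpin. Both groups had RANKL, the cytokine that turns these cells into osteoclasts, at 50 ng/mL for 4 days. The number of hairpins used, and whether the cells were pools or clones, are not given in the sources used here. Separate cultures are not mentioned in the labels, and the p-values therefore rest on variation among these libraries that could be technical. In bulk RNA, fewer cells of a type and less RNA per cell cannot be told apart.

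Macrophages take up lipoprotein cholesterol and must export or store what they cannot break down. Oxysterols activate the LXR receptors (Nr1h3 encodes LXRα, Nr1h2 LXRβ), which pair with RXR and switch on the efflux transporters and Mylip. PPARγ, encoded by Pparg, also pairs with RXR, binds fatty acids and induces genes of lipid uptake and storage. LXR-RXR pairs bind direct repeats of AGGTCA spaced by 4 bases (DR4), and PPAR-RXR pairs bind repeats spaced by 1 base (DR1).

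The promoter stretches of Plin2 and Abca1 are shown because each held a near match to the element of its known receptor. Both run 5′ to 3′ on the strand of the gene, cover the 250 bases before the RefSeq start (GRCm38.p6) and have the match in capitals. The Plin2 stretch is chr4:86670060-86670309, minus strand, and the Abca1 stretch is chr4:53159896-53160145, minus strand.
Plin2: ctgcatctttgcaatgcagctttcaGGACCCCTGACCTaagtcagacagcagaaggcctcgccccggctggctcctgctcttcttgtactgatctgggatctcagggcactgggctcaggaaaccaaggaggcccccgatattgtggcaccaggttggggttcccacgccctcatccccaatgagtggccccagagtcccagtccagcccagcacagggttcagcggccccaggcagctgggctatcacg
Abca1: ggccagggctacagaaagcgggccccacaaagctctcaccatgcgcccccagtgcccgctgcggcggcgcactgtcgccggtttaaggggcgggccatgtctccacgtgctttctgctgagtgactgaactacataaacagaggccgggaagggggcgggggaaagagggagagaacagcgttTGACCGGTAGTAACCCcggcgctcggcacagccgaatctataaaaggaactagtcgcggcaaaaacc
The Plin2 match to DR1 lay 225 to 213 bases before the start, on the opposite strand, with 2 mismatches in the 12 fixed bases. Among all 32851 RefSeq promoter windows, which were longer and also took in bases after the start, 3.86% held such a match to DR1 on either strand. The Abca1 match to DR4 lay 67 to 52 bases before the start, also on the opposite strand, with 3 mismatches, and 21.9% of all windows held a DR4 match at that level. A Pparg window, not shown, held a DR4 match with 3 mismatches too. At most 2 mismatches were allowed in the main search, and under it Plin2 was the only member with a match among the 9 windows of Nr1h3, Nr1h2, Pparg, Abca1, Plin2 and Mylip. These matches describe letters and do not show binding. The other 4 members were not searched.

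Total expected counts were 19973522 to 20142107 in shUSP8 libraries and 20121644 to 20213939 in shCtrl libraries. Usp8 averaged 33.9 ± 1.68 CPM (expected counts relative to the scaled library size) in shUSP8 and 135.7 ± 5.86 CPM in shCtrl (SD, n = 3 each), a log2 fold change of -2.00. The labelled cell type was checked by markers. All 10 macrophage markers and all 10 osteoclast markers passed the filter. Summed TPM (length-normalised share of transcripts) of the macrophage markers was 6116 to 6733 in shUSP8 and 4019 to 4321 in shCtrl. Of that sum, Lyz2 alone made 3277 TPM on average in shUSP8 and 939 TPM in shCtrl. By gene, 8 markers were higher and 2 lower (Cd68 and Csf1r) in shUSP8, where 17.8% of all genes tested were higher and 14.9% lower. For the osteoclast markers the sums were 9453 to 9795 in shUSP8 and 9986 to 10861 in shCtrl, with 5 markers lower. Of the markers of other cells, 1 of 8 endothelial genes was tested and fell (Vwf), 4 of 8 stromal genes were tested and 0 called by edgeR, 1 of 10 neutrophil genes passed the filter in both groups and rose (Cebpe), and 1 of 10 lymphocyte genes was tested and rose (Lck). These shifts ran beside the results that follow, and their part in them was not tested. Mean fragment length was not measured but estimated from expected counts over TPM in genes with a single transcript. The estimate was 368.3 nt in shUSP8_2 and 291.6 to 309.4 nt in the other 5 libraries.

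Plin2 rose, Fabp5 and Abcg1 fell, and Nr1h3, Nr1h2, Abca1, Lpl and Mylip did not pass the test. A gene was called at a Benjamini-Hochberg adjusted p under 0.05 in edgeR's quasi-likelihood test over all 12440 genes. By that rule 3 of the 8 members that passed the filter in both groups were called, against 32.8% of all genes tested. The 1 member that rose compares with 17.8% of all genes higher, and the 2 that fell with 14.9% lower. Pparg was called higher too, but it passed the filter through its shUSP8 counts alone, so that its direction was given by the filter and it is left out of these counts. In 5 of the 8 members the CPM values of the groups did not overlap, against 47.7% of all genes tested, of which 24.6% were higher and 23.1% lower in shUSP8. Nr1h3 and Plin2 were the 2 such members that were higher, and Nr1h2, Abcg1 and Fabp5 the 3 that were lower. With so few members these shares give no result about the members as a group. The median log2 fold change was 0.017 over the 8 members and -0.0049 over all genes.

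**Figure D1:**
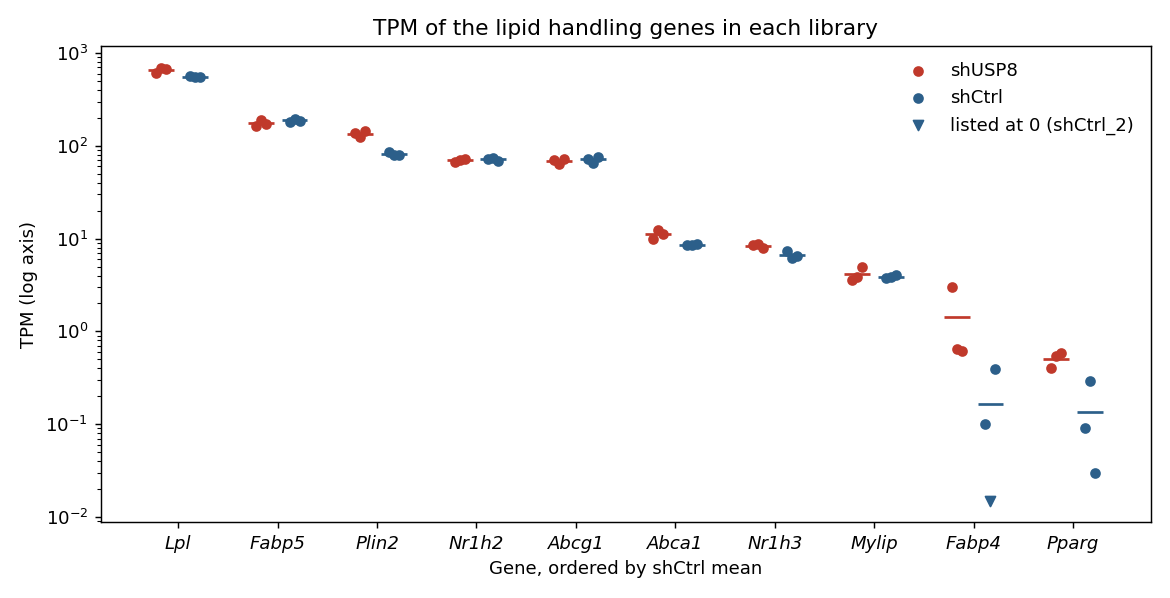
TPM of the 10 genes in each library on a log axis, ordered by the shCtrl mean, with shUSP8 left of shCtrl. Points are libraries, short lines are means of 3, and the triangle marks a library listed at 0. Lpl stood highest, at 607.86 to 697.53 TPM in shUSP8 and 547.25 to 564.26 in shCtrl, and Pparg lowest.

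Levels per transcript length, in TPM, differed widely between the members, as the plot of TPM by library shows. Lpl averaged 656.9 ± 45.4 TPM in shUSP8 and 554.6 ± 8.75 TPM in shCtrl (SD, n = 3 each), a level above that of 97.8% of tested genes in shCtrl. Fabp5 came next at 175.6 ± 11.5 TPM in shUSP8 and 187.8 ± 7.42 TPM in shCtrl. Plin2 followed at 135.4 ± 10.7 TPM in shUSP8 and 81.9 ± 4.27 TPM in shCtrl. Nr1h2 and Abcg1 were neighbours whose ranges overlapped in each group, with means of 69.8 and 68.5 TPM in shUSP8 and 72.3 and 71.5 TPM in shCtrl. Abca1 lay well below its partner transporter, at 11.2 TPM in shUSP8 and 8.59 in shCtrl. Nr1h3 averaged 8.35 TPM in shUSP8 and 6.71 in shCtrl, and Mylip 4.13 and 3.89 TPM. Fabp4, at 1.43 TPM in shUSP8 and 0.163 in shCtrl, and Pparg, at 0.507 and 0.137 TPM, were barely detected. The order of the means was the same in both groups. Adjacent ranges in shCtrl overlapped for Nr1h2 with Abcg1 and for Fabp4 with Pparg.

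Of the receptors, Nr1h3 (LXRα, chromosome 2, 91184061 to 91202834, minus strand, GRCm38) had expected counts of 222, 222 and 193 in shUSP8 and 184, 156 and 178 in shCtrl. Every shUSP8 library was above every shCtrl library, yet the gap between the groups was small beside their spread. The log2 fold change was 0.23 (SE 0.10, edgeR adjusted p = 0.109), and with library totals it passed (0.31, adjusted p = 0.0364). Nr1h2 (LXRβ, chromosome 7, 44549616 to 44553951, minus strand) had 1601, 1630 and 1573 counts in shUSP8 and 1678, 1636 and 1707 in shCtrl. After scaling, all 3 shUSP8 libraries lay below all 3 shCtrl libraries, at 77.9 ± 0.958 CPM in shUSP8 and 85.3 ± 2.78 CPM in shCtrl. This difference of -0.13 on the log2 scale (SE 0.05) missed the threshold (adjusted p = 0.0603). With effective-length offsets, which scale each gene by its expected count over TPM in each library, it passed (-0.18, adjusted p = 0.0363). The TPM ratio of Nr1h3 to Nr1h2 was 0.125, 0.126 and 0.109 in shUSP8 and 0.102, 0.0825 and 0.0943 in shCtrl. The ratios of the groups did not overlap (exact permutation test, two-sided, p = 0.1, which is the lowest p this design allows).

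Pparg (chromosome 6, 115360951 to 115490399, plus strand) was near the limit of detection, with 11, 17 and 16 counts in shUSP8 and 2, 6 and 1 in shCtrl. It passed the filter only through its shUSP8 counts, so a rise was a condition of its being tested. The fitted log2 fold change was 2.18 (SE 0.50, adjusted p = 0.00565), a value that depends on the prior count. With a library left out it was 1.79 to 3.12, the highest being without shCtrl_2. Summed over libraries there were 44 counts in shUSP8 and 9 in shCtrl, a ratio of 4.67 per scaled library size (exact 95% interval 2.25 to 10.9, counting error only). The rise no longer passed with effective-length offsets (1.89, adjusted p = 0.0529), where lengths rest on TPM values deposited with 2 decimals, as low as 0.03. On log2(TPM + 1) the difference was 0.41 (adjusted p = 0.0317), a scale that shrinks changes of low genes.

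Partners of these receptors were counted over 13 genes, of which 10 were tested, and 3 rose and 1 fell. Among all genes tested, 17.8% were higher and 14.9% lower. Rxra, the RXR partner of LXR and PPAR, rose to 38.6 ± 3.22 CPM in shUSP8, against 11.3 ± 1.12 CPM in shCtrl (SD, n = 3 each). Its log2 fold change was 1.77 (SE 0.09, edgeR adjusted p = 1.87e-08). Ppard, which encodes PPARδ, stood at 50.1 ± 1.93 CPM in shUSP8 and 30.7 ± 3.01 CPM in shCtrl and rose by 0.71. Ppargc1b, a PPAR coactivator, fell by 0.32 (SE 0.06). The median over the 10 was 0.03.

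Among the transporters, Abca1 (chromosome 4, 53030787 to 53159895, minus strand) loads cholesterol onto lipid-poor apolipoprotein. Its expected counts were 1527, 2202 and 1799 in shUSP8 and 1458, 1483 and 1582 in shCtrl. The CPM values of the groups overlapped: shUSP8_1 had 74.5 CPM, below the 74.9 and 81.7 CPM of shCtrl_2 and shCtrl_3, while shUSP8_2 reached 106.3. The log2 fold change was 0.22 (SE 0.13, edgeR adjusted p = 0.249). Without shUSP8_1 it was 0.34 and passed (adjusted p = 0.0105), and without shUSP8_2, the library of the longest estimated fragments, it was 0.08 (adjusted p = 0.448). Without the filter it also passed (0.22, adjusted p = 0.0191), and on log2(TPM + 0.1) it was 0.37 (adjusted p = 0.0495).

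Abcg1 (chromosome 17, 31057675 to 31117988, plus strand) passes cholesterol on to mature HDL. It had 3174, 3394 and 3313 expected counts in shUSP8 and 3667, 3549 and 3679 in shCtrl. All shUSP8 libraries were lower, at 160.2 ± 4.68 CPM in shUSP8 and 185.0 ± 5.41 CPM in shCtrl (SD, n = 3 each). The log2 fold change was -0.21 (SE 0.05, edgeR adjusted p = 0.00656), and the call held with any single library left out. That call failed with effective-length offsets (-0.19, adjusted p = 0.126) and library totals (-0.13, adjusted p = 0.0592). On log2(TPM + 1) it was -0.06 (adjusted p = 0.617). All genes together had a median of 0.11 on that scale and of 0.07 with library totals. The TPM ratio of Abca1 to Abcg1 was 0.141, 0.195 and 0.156 in shUSP8 and 0.117, 0.130 and 0.115 in shCtrl. These ratios did not overlap between the groups (exact permutation test, two-sided, p = 0.1). No such ratio was formed for Fabp4 over Fabp5, since Fabp4 was listed at 0 in shCtrl_2.

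**Figure D2:**
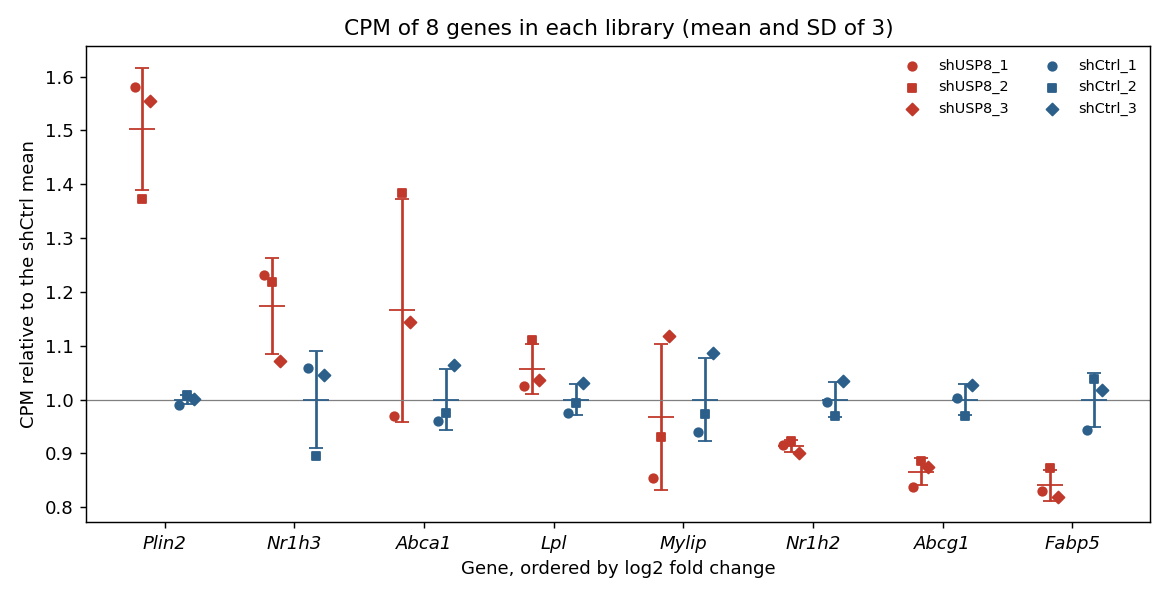
CPM of 8 genes in each library divided by the shCtrl mean, with shUSP8 left of shCtrl; marker shape gives the library number, and bars are the mean and SD of 3 libraries. Plin2 is set apart in all shUSP8 libraries, Abca1 is high mainly in shUSP8_2 (106.3 CPM), and Fabp5 and Abcg1 lie below every shCtrl library.

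Other ABCA and ABCG transporters were mostly at low counts. Of 16, 4 passed the filter with a library of each group at its limit, 0 rose and 2 fell. Shares over all genes tested were 17.8% higher and 14.9% lower. Abca8b had 19, 17 and 26 counts in shUSP8 and 1, 5 and 3 in shCtrl, and was called higher after passing the filter through its shUSP8 counts only. Abca2, a transporter of endosomes and lysosomes, averaged 114.9 ± 8.69 CPM in shUSP8 and 134.9 ± 0.790 CPM in shCtrl (log2 fold change -0.23, SE 0.06, edgeR adjusted p = 0.00909). Its call was lost with library totals (-0.16, adjusted p = 0.0694) and on log2(TPM + 1) (-0.15, adjusted p = 0.174). Abcg2, an exporter of drugs and haem, had 11, 13 and 6 counts in shUSP8 and 19, 18 and 19 in shCtrl (-0.96, adjusted p = 0.0386). For Abcg2, all shCtrl libraries and also shUSP8_1 and shUSP8_2 reached the limit of the filter, while shUSP8_3 was under it. Its adjusted p was 0.0523 to 0.144 without shCtrl_1, shCtrl_2, shCtrl_3, shUSP8_1 or shUSP8_3.

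LXR targets outside the members moved in both directions. Of 14 genes listed, 10 passed the filter in both groups, 2 rose and 7 fell, with a median of -0.22. Over all genes tested, 17.8% were higher and 14.9% lower, with a median of -0.0049. Smpdl3a, a phosphodiesterase that LXR induces in macrophages, rose to 68.3 ± 1.47 CPM in shUSP8, against 49.4 ± 0.942 CPM in shCtrl (log2 fold change 0.47, SE 0.05, edgeR adjusted p = 2.07e-05). Mertk, a receptor for apoptotic cells, rose by 1.33 (SE 0.25), with low counts of 30, 40 and 36 in shUSP8 and 12, 14 and 14 in shCtrl. Acsl3, an acyl-CoA synthetase of lipid droplets, fell by 0.40 (SE 0.05), and Cd5l, a secreted macrophage protein, by 0.72 (SE 0.10).

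The other members of that list are named after their values were seen. Scd2 (-0.28) and Scd1 (-0.19), which desaturate fatty acids, and Srebf1 (-0.17), their transcriptional activator, fell. Pltp (-0.27), which transfers phospholipid between lipoproteins, and Lpcat3 (-0.25), which remodels phospholipids, fell as well. The small GTPase gene Arl4c had 19, 15 and 18 counts in shUSP8 and 9, 7 and 6 in shCtrl (1.16), and was tested through its shUSP8 counts only. The Scd1 call was lost without shCtrl_1, shCtrl_2 or shUSP8_3 (adjusted p = 0.0578 to 0.0772), and that of Srebf1 without shCtrl_1, shCtrl_2, shCtrl_3 or shUSP8_3 (0.0625 to 0.108). Arl4c did not pass without shCtrl_2, shCtrl_3 or shUSP8_3 (0.0539 to 0.066). Scd1 and Lpcat3 missed the threshold with effective-length offsets. On log2(TPM + 1), 2 genes of the list rose and 2 fell, against 18.7% of all genes higher and 4.01% lower.

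Mylip (chromosome 13, 45389742 to 45412022, plus strand) encodes IDOL, a ubiquitin ligase that LXR induces and that limits lipoprotein uptake. Its expected counts were 169, 186 and 221 in shUSP8 and 179, 186 and 203 in shCtrl. The groups overlapped fully, with the highest and the lowest value both in shUSP8. The log2 fold change was -0.05 (SE 0.12, edgeR adjusted p = 0.791; SE-based 95% interval -0.27 to 0.18), and its sign turned with library totals (0.03) and on log2(TPM + 1) (0.06).

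Plin2 gave the clearest change among the members. It lies on chromosome 4 at 86648386 to 86670060, minus strand, downstream of the promoter shown above, and encodes the coat protein of lipid droplets in macrophages. Its expected counts were 3256, 2857 and 3202 in shUSP8 and 1966, 2005 and 1949 in shCtrl. The shCtrl libraries lay close together, and the lowest shUSP8 library, shUSP8_2, was still far above them. Plin2 rose to 151.1 ± 11.5 CPM in shUSP8, against 100.5 ± 0.900 CPM in shCtrl (SD, n = 3 each). The log2 fold change was 0.59 (SE 0.06, edgeR adjusted p = 1.08e-05). It was 0.55 to 0.65 with a library left out, 0.59 with effective-length offsets and 0.72 on log2(TPM + 1), and was called in each of these fits.

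Of 18 genes of lipid droplets and triglycerides beside Plin2, 13 were tested, 2 rose and 2 fell, and the median was 0.0048. For all genes tested the shares were 17.8% higher and 14.9% lower. With library totals 5 rose and 1 fell, where 25.0% of all genes were higher and 9.42% lower. Without the filter, which admits more of the list, 6 rose and 2 fell, where 10.8% were higher and 9.88% lower. Gpat4, an enzyme of the first step of triglyceride synthesis, rose by 0.36 (SE 0.05), and Pnpla2, the lipase ATGL, by 0.32 (SE 0.05). Lpin1, a phosphatidate phosphatase, fell to 48.0 ± 5.53 CPM in shUSP8, against 70.8 ± 0.613 CPM in shCtrl (log2 fold change -0.56, SE 0.07, edgeR adjusted p = 0.000128). Plin3, a perilipin found in most cells, was at 98.3 ± 2.21 CPM in shUSP8 and 113.4 ± 1.77 CPM in shCtrl (-0.21, adjusted p = 0.00536). It no longer passed with effective-length offsets (-0.07, adjusted p = 0.641) and library totals (-0.13, adjusted p = 0.0511), and its sign turned on log2(TPM + 1) (0.05).

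**Figure D3:**
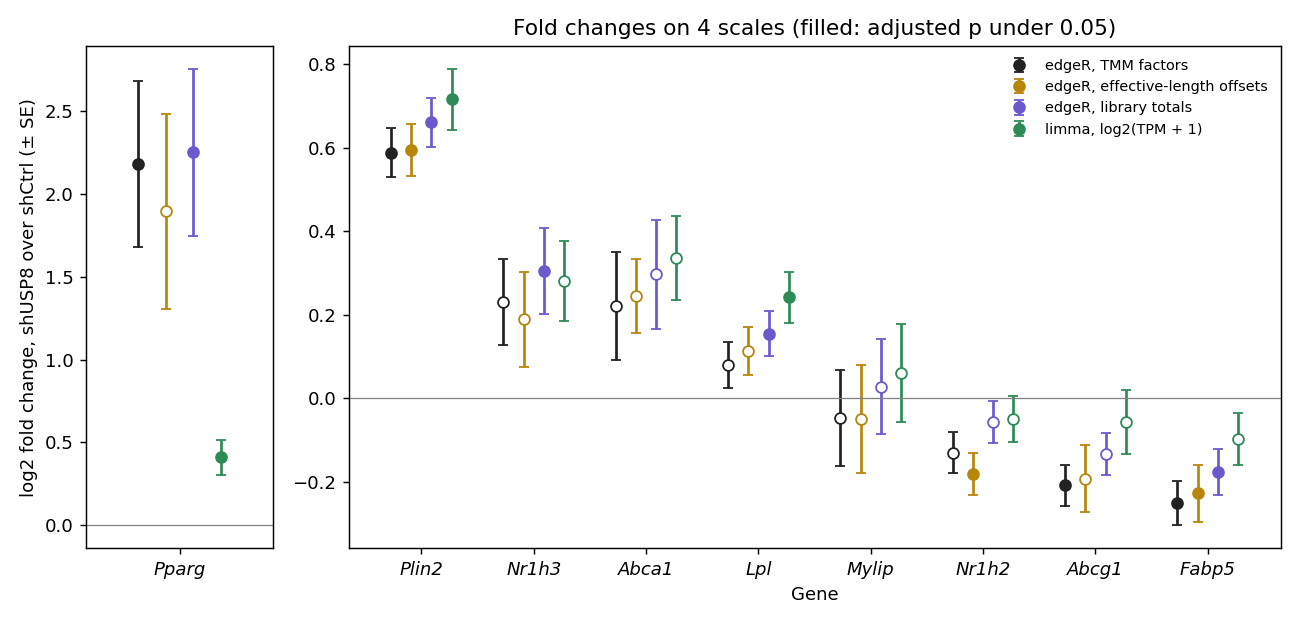
Log2 fold change of shUSP8 over shCtrl with its SE for 9 genes on 4 scales, with Pparg on an axis of its own; filled points had an adjusted p under 0.05. Plin2 is called on each scale (0.59 to 0.72), whereas Fabp5, Abcg1, Lpl, Nr1h3, Nr1h2 and Pparg are called on some of them, and Mylip crosses 0.

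Lpl (chromosome 8, 68880491 to 68907448, plus strand) encodes lipoprotein lipase, the enzyme that frees fatty acids from lipoproteins. It had 23663, 25893 and 23878 expected counts in shUSP8 and 21696, 22143 and 22459 in shCtrl. After scaling, the lowest shUSP8 value, 1155 CPM, was under the highest shCtrl value, 1160 CPM, so the groups overlapped. Its log2 fold change was 0.08 (SE 0.05, edgeR adjusted p = 0.292). With library totals it was 0.15 and passed (adjusted p = 0.0431), and on log2(TPM + 1) it was 0.24 (adjusted p = 0.0291). Partners of the enzyme and related lipases numbered 10, of which 5 were tested and 1 fell, against 14.9% of all genes tested. The gene that fell was the endothelial lipase gene Lipg (-0.65, edgeR adjusted p = 0.0317). Its counts overlapped, at 41, 68 and 46 in shUSP8 and 86, 63 and 83 in shCtrl, and the call was lost without shCtrl_1, shCtrl_3, shUSP8_1 or shUSP8_3 (adjusted p = 0.0646 to 0.118). Gpihbp1, which anchors lipoprotein lipase to capillaries, was at 0 in all libraries.

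Fabp5 and Fabp4 carry fatty acids through the cytosol, and lie near each other on chromosome 3. Fabp5 (10012548 to 10016607, plus strand) had 1994, 2117 and 1964 expected counts in shUSP8 and 2183, 2408 and 2310 in shCtrl. Each shUSP8 library was below each shCtrl library, with means of 98.5 ± 3.29 CPM in shUSP8 and 117.2 ± 5.88 CPM in shCtrl (SD, n = 3 each). The log2 fold change was -0.25 (SE 0.05, edgeR adjusted p = 0.00359). It was called with any single library left out and with effective-length offsets (-0.23, adjusted p = 0.0446), but not on log2(TPM + 1) (-0.10, adjusted p = 0.296). Fabp5 shares 80 stretches of 100 bases with Gm6166, listed at 324.9, 85.2 and 204.9 counts in shUSP8 and 199.6, 254.7 and 266.3 in shCtrl, so reads could be split between them. With both counts added the log2 fold change was -0.26 (adjusted p = 0.00433).

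Fabp4 (10204088 to 10208576, minus strand), a PPARγ target known from adipocytes and macrophages, had 33, 6 and 6 counts in shUSP8 and 1, 0 and 5 in shCtrl. Most of the shUSP8 counts came from shUSP8_1, and the lowest shUSP8 library had 1 count more than the highest shCtrl library. It did not pass the filter. Summed counts were 45 in shUSP8 and 6 in shCtrl, a ratio of 7.16 (exact 95% interval 3.05 to 20.5, counting error only), and without shUSP8_1 the ratio was 2.86 (0.993 to 9.29). Fitted without the filter it was called (log2 fold change 2.76, edgeR adjusted p = 4.14e-05), as it was by DESeq2 (2.83, adjusted p = 0.0446). Markers of adipocytes stayed near 0: of 12, only Lipe and Slc2a4 passed the filter and neither was called. Adipoq and Plin1 had 1 count in shUSP8_1 and 0 elsewhere, and Lep was at 0. Summed TPM of these markers was 14.29 to 16.97 in shUSP8 and 11.77 to 12.24 in shCtrl, of which Lipe made 11.75 to 13.04 in shUSP8 and 10.13 to 11.23 in shCtrl.

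Of 7 other FABP genes, 1 passed the filter in both groups, and it rose, as did 17.8% of all genes tested. This gene, Fabp7, the brain form, averaged 11.6 ± 0.968 CPM in shUSP8 and 4.72 ± 0.163 CPM in shCtrl (log2 fold change 1.30, SE 0.11, edgeR adjusted p = 1.56e-06). Fabp3, the heart form, had 92, 28 and 38 counts in shUSP8 and 7, 3 and 8 in shCtrl (3.04, SE 0.61, adjusted p = 0.00835) and was tested through its shUSP8 counts only, which fixed its direction. Without shUSP8_1 its log2 fold change was 2.37.

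Of 12 PPAR targets outside the members, 9 were tested, 4 rose and 1 fell, with a median of 0.42. Of all genes tested, 17.8% were higher and 14.9% lower, with a median of -0.0049. Cd36, a scavenger receptor and fatty acid transporter, had 11500, 12011 and 11872 expected counts in shUSP8 and 2932, 2645 and 2808 in shCtrl. It rose to 573.6 ± 10.7 CPM in shUSP8, against 142.4 ± 7.76 CPM in shCtrl (log2 fold change 2.01, SE 0.06, edgeR adjusted p = 1.15e-10). Tgm2, a transglutaminase, rose by 0.47 (SE 0.05), and Cpt1a, the gate of fatty acids into mitochondria, by 0.42 (SE 0.06). The member that fell, named after its value was seen, was the mitochondrial carrier Ucp2 (-0.22, adjusted p = 0.00959), whose call was lost without shCtrl_1 (adjusted p = 0.0597).

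Genes of sterol uptake, esterification and release numbered 17, of which 14 passed the filter in both groups. Of these, 7 rose and 1 fell, with a median of 0.28. In all genes tested, 17.8% were higher and 14.9% lower, with a median of -0.0049. Lipa, the lysosomal acid lipase that frees cholesterol from lipoproteins, rose to 436.1 ± 21.3 CPM in shUSP8, against 219.2 ± 4.83 CPM in shCtrl (log2 fold change 0.99, SE 0.05, edgeR adjusted p = 3.40e-08). Msr1, a scavenger receptor, rose by 0.45 (SE 0.05), and Nceh1, a cholesteryl ester hydrolase, by 0.39 (SE 0.06). Named after its value was seen, Npc2, a lysosomal cholesterol carrier, fell (-0.23). Olr1, a receptor for oxidised LDL, had 3, 8 and 4 counts in shUSP8 and 15, 15 and 19 in shCtrl (-1.75), and passed the filter through its shCtrl counts only. The Npc2 call was lost without shCtrl_2 (adjusted p = 0.0673), shCtrl_3 (0.0599) or shUSP8_3 (0.0671), and with effective-length offsets (0.059).

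Targets of SREBP2, the transcription factor released when membrane sterol is low, were mostly not called. Of 18 listed, 17 were tested, 3 rose and 0 fell, with a median of 0.03, against 17.8% of all genes higher and 14.9% lower. Dhcr7, a late enzyme of cholesterol synthesis, rose by 0.44 (SE 0.09). Hmgcs1, an early enzyme, rose by 0.17 (adjusted p = 0.0173), a call lost without shCtrl_2 (0.0686), shCtrl_3 (0.0666) or shUSP8_3 (0.0563). With library totals 6 rose, where 25.0% of all genes were higher, and on log2(TPM + 1) 5 rose, where 18.7% were.

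**Figure D4:**
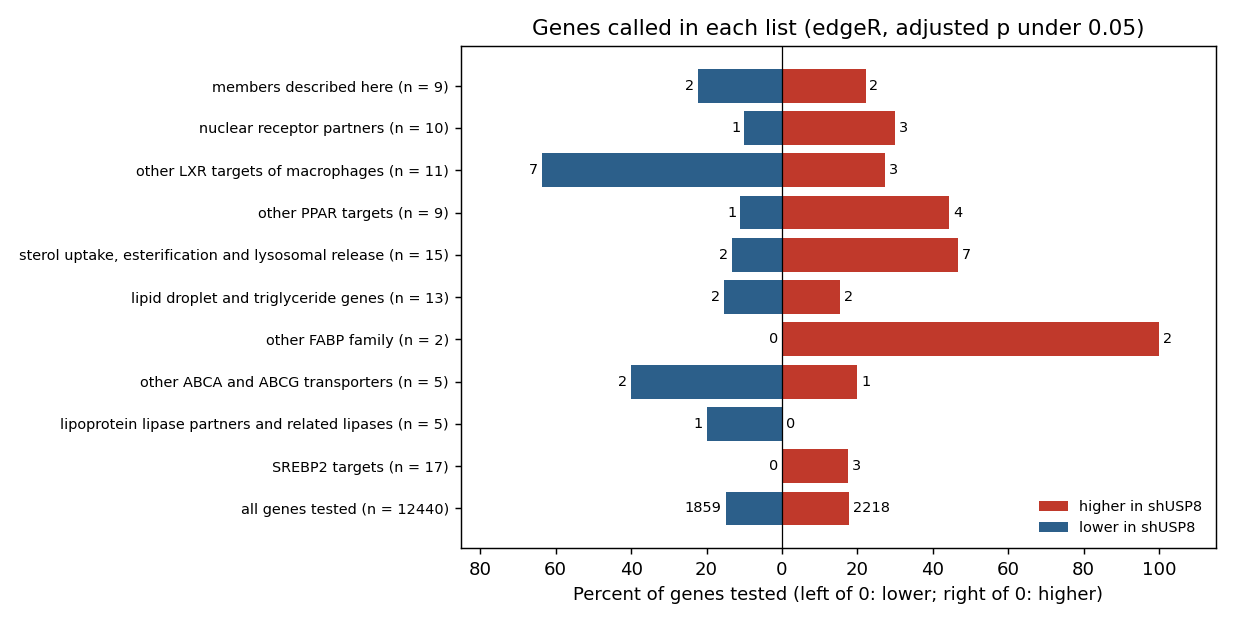
Percent of genes tested in each list that were higher (right of 0) or lower (left of 0) in shUSP8 against shCtrl by edgeR at an adjusted p under 0.05, with the number of genes at each bar. The bottom bars give all 12440 genes tested, 17.8% higher and 14.9% lower; the LXR list has 7 lower and the sterol uptake list 7 higher. Genes that passed the filter through 1 group only (Pparg, Arl4c, Fabp3, Abca8b and Olr1) are included. So are Abcg2 and Dgat2, in which a library of 1 group was under the limit of 10 counts.

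Over all genes, 54.4% of the genes called were higher in shUSP8. On log2(TPM + 1) the share was 82.4%, with library totals 72.6% and by DESeq2 52.9%. With library totals 4 members rose (25.0% of all genes tested) and 1 fell (9.42%), against 34.4% of all genes called. On log2(TPM + 1), 3 members rose (18.7%) and 0 fell (4.01%), against 22.7% of all genes called by limma, and 0 members were lower at an unadjusted p under 0.05. With effective-length offsets 1 member rose (Plin2, 12.2%) and 2 fell (Fabp5 and Nr1h2, 9.9%), against 22.1% of all genes called. On log2(TPM + 0.1), 4 members rose (18.9%) and 0 fell (3.96%), against 22.9% of all genes called by limma. Without the filter 4 rose (10.8%) and 2 fell (9.88%), against 20.7% of all genes. By DESeq2 3 members rose (12.1%) and 2 fell (10.7%), against 22.8% of all genes called. Pparg is among the members that rose in each of these fits but that with effective-length offsets. Profiles over the 6 libraries were compared with 8643 other genes by Pearson's r of log2 CPM, as a description, since the points share 2 groups. Plin2 was most like Ogfr (r = 1.000), Slc1a5 (0.998) and Calhm2 (0.996). Abcg1 was most like Rab2b (0.997), Trp53inp1 (0.994) and Slc16a7 (0.994), and Fabp5 most like Gba2 (0.998), Rnf215 (0.993) and Zmym3 (0.992). Abca1, with its high value in shUSP8_2, was most like Ehmt1 (0.987), Ube2q2 (0.986) and Stxbp5 (0.982). Pparg, Nr1h3, Nr1h2, Lpl and Mylip were most like Tmem131l (0.994), Ecsit (0.983), Ciapin1 (0.998), Itfg1 (0.992) and Orc4 (0.975), in that order of members.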

How the data were processed

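Paired-end DNBSEQ reads were taken from 6 libraries, per the labels' protocols. The deposited expected counts are estimates per gene made by the authors, and 7.16% of them were not whole (tolerance 0.001). The deposited TPM values, made by the authors, scale these by effective length and library. Named without roles in the submitters' processing notes are RSEM, mm10 and DESeq2 1.28.1; the aligner is not given in the sources used here. Columns WT-1 to WT-3 were read as shCtrl_1 to shCtrl_3 by genotype label and title number, and KO-1 to KO-3 as shUSP8_1 to shUSP8_3, KO being matched to the only other genotype label. Gene positions are from GENCODE M21 (GRCm38), which held 98.7% of the listed transcripts.

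Expected counts were rounded to whole numbers. After filterByExpr (at least 10 counts, 15 in total), edgeR 4.0.16 under R 4.3.3 fitted all genes with TMM scaling and tested them by its quasi-likelihood F test, set to robust. SE is the absolute log2 fold change over the square root of F. The filter needed as many libraries at its limit as a group holds. A gene was counted as past it in both groups if any library of each group reached the limit. CPM uses TMM factors, and log2 CPM a prior count of 2. Alternatives were RLE, upper quartile and library-total scaling, no filter, DESeq2 1.42.0, limma-voom and limma-trend (limma 3.58.1) on log2(TPM + 1) and log2(TPM + 0.1), leaving out each library, a replicate block and effective-length offsets (expected count over TPM). The fits were tested on simulated data. Chi-square per gene was 2.26 between shCtrl_1 and shCtrl_2 and 5.06 to 18.3 in other pairs within a group, so all 6 libraries were kept as separate.

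Members and lists were chosen with earlier results of these data known. Named genes are Usp8, the members, up to 4 called genes of each list by smallest p, and the 3 genes most like a member in profile; others are marked in the text. Some genes of the lists enter the counts but are not reported here by name. Promoters came from RefSeq (GRCm38.p6), in which 6 members had windows.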

Additional observations from a re-analysis of the deposited data

How the results depend on the processing

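Plin2 rose in every alternative run, and the Fabp5 and Abcg1 calls were lost on the TPM scales. The Abcg1 call was also lost with effective-length offsets and with library totals, where that of Fabp5 was kept. With effective-length offsets Nr1h2 was called lower instead of Abcg1. Members called higher numbered 2, Plin2 and Pparg, the latter tested through its shUSP8 counts only. This compares with 4 with library totals, without the filter or on log2(TPM + 0.1), and 1 with effective-length offsets. A count added after the data were seen, over members past the filter in both groups, also gave 1. All genes higher were 17.8%, against 25.0%, 10.8%, 18.9% and 12.2% in the order of these fits. Members called lower numbered 2, against 1 with library totals and 0 on log2(TPM + 1) or log2(TPM + 0.1), where limma gave 0 lower at an unadjusted p under 0.05 and DESeq2 called 2. With a library left out, 2 to 3 members were higher, with Pparg among them each time, and 2 were lower. Over all genes, 1859 were lower, against 1172 with library totals, 1226 with effective-length offsets, and 499 and 493 on log2(TPM + 1) and log2(TPM + 0.1). With a library left out, 1675 to 2349 genes were higher and 1239 to 2077 lower, the lowest count of lower genes without shCtrl_2. The sign turned for Mylip with library totals (0.028), on log2(TPM + 1) (0.061) and log2(TPM + 0.1) (0.072), and without shCtrl_3 or shUSP8_1, with -0.16 to 0.035 over the libraries left out. It turned for Plin3 on the TPM scales (0.053 and 0.054) and for Apoe with limma-voom (-0.035) and without shCtrl_2 or shUSP8_1, with -0.71 to 0.53 over the libraries left out. The cause of these changes was not tested. Log2 differences of the TPM ratios with a library left out were 0.29 to 0.44 for Nr1h3 over Nr1h2 and 0.30 to 0.53 for Abca1 over Abcg1. DR4 was found in 0.0152% of windows without mismatch and 21.9% with up to 3, and DR1 in 0.0396% and 24.6%.

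Equal replicate numbers are not called pairs by the labels, and same-numbered libraries had correlations of -0.05 to 0.08 in their deviations from group means. With the replicate block 2021 genes were higher and 1690 lower, and the same counts of members, 2 higher and 2 lower, were called. Pparg, Fabp4 and other genes under about 20 counts are limited by depth.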

Other observations

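Apoe, which encodes the apolipoprotein that carries exported cholesterol, had 276, 80 and 71 expected counts in shUSP8 and 127, 80 and 145 in shCtrl. Its log2 fold change was 0.21 (SE 0.69, edgeR adjusted p = 0.849) and -0.71 without shUSP8_1 (adjusted p = 0.0604). Fabp4, Fabp3 and Apoe each had their highest count in shUSP8_1, with 33, 92 and 276. Without that library the log2 fold change of Fabp3 was 2.37 (edgeR adjusted p = 0.000208). Fabp3 was tested through its shUSP8 counts only, which fixed its direction, so this call adds no support for a rise. These genes were picked after their values were seen.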
